A study of Mus musculus with 28 samples.

Results

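Ribosome footprints of cortical neurons expressing human TDP-43 with the A315T substitution (hTDP-43-A315T) were compared with footprints of neurons expressing wild-type human TDP-43 (hTDP-43). The members were chosen by cell type, library type and genotype as the labels give them, which left 3 libraries per genotype, 6 of the 28 libraries of the series. Both kinds of neurons came from the cortex of E16 embryos of C57BL/6J mice and were grown to day 14 in vitro (DIV14), with 0.5 µM cytosine arabinoside, which removes dividing cells, added at DIV4. Both genotypes carried a human TARDBP transgene under the mouse prion promoter, so the comparison is of a mutant with a wild-type transgene and not with neurons that lack one. By the study's account the animals were hemizygous and the mutant protein was somewhat more abundant than the wild-type human protein in these cultures. The study labels only the mutant protein of the neurons as Flag-tagged and cites a different source for each transgenic line. Tag, line and substitution therefore cannot be told apart. The labels do not say how many embryos went into a culture. Total mRNA of the same 6 cultures and footprints of 2 non-transgenic (WT) cultures were used beside the footprint values.

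TDP-43 is an RNA-binding protein of the nucleus and cytoplasm that binds GU-rich RNA and acts in splicing, transport, stability and translation of mRNAs. Mutations in its gene, A315T among them, cause familial amyotrophic lateral sclerosis, and aggregates of the protein mark most cases of the disease. A ribosome footprint is the short stretch of mRNA that a ribosome shields from RNase, and counts of footprints on a gene depend both on how much of its mRNA is present and on how densely ribosomes occupy it. Any RNA fragment of footprint size that sediments with monosomes can enter such a library, small non-coding RNAs included.

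The depth of the libraries set what could be measured. The hTDP-43 libraries held 2389229, 192008 and 166064 reads assigned to genes in replicates 1, 2 and 3, and the A315T libraries 2528820, 473805 and 1042983. Replicates with the same number share a date in the labels, and replicate 1 held 72.4% of all reads. In the hTDP-43 libraries of replicates 2 and 3, 3 counts correspond to 15.6 and 18.1 counts per 1000000 assigned reads (CPM), against 1.26 CPM in replicate 1. A gene entered the test if it reached about 13.2 CPM in 3 libraries, which 8367 of 45513 genes did. Of these, 4140 had fewer than 10 counts in hTDP-43 replicate 2, 4893 had fewer than 10 in hTDP-43 replicate 3, and 3191 had at least 10 in every library. Every hTDP-43 footprint library carried the index GTGAAA and every A315T footprint library the index CAGCAT, so genotype and index cannot be told apart.

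Markers of neurons were the most abundant of the cell type lists in all 6 libraries. The 18 neuron markers summed to between 10249 and 10658 CPM in hTDP-43 and between 9552 and 9950 CPM in A315T. The 11 astrocyte markers summed to 615 to 711 CPM and 410 to 701 CPM. The 12 microglia markers summed to 0.837, 0 and 0 CPM in hTDP-43 replicates 1 to 3 and to 4.75, 6.33 and 4.79 CPM in A315T. The 0.837 CPM lies below the 1.26 CPM of 3 counts in that library. The 0 counts in hTDP-43 replicates 2 and 3 allow up to 15.6 and 18.1 CPM, so the order at those dates was not measured. Aif1, Itgam, C1qb, C1qc and Tmem119 were at 0 counts in all 6 libraries. The 7 blood markers summed to 1.26 and 1.98 CPM in replicate 1 of hTDP-43 and A315T and to 0 in the other libraries, with both alpha globin genes, Hbb-bt and Hbb-y at 0. The 12 markers of cycling cells summed to 46.9 to 69.9 CPM in hTDP-43 and 50.7 to 60.5 CPM in A315T, and those of endothelial and mesenchymal cells to 18.0 to 30.1 CPM and 16.3 to 23.2 CPM. The 11 markers of the oligodendrocyte lineage stood at 60.3 to 90.3 CPM and 49.9 to 71.8 CPM.

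Footprints of 15 genes were higher in A315T than in hTDP-43 neurons and no gene was lower at an adjusted p under 0.05, when the replicates were paired by date. The 15 genes are 0.179% of those tested. Their log2 fold changes ran from 0.84 to 2.70, with standard errors (SE) from 0.14 to 0.34. They comprised Mid1ip1, a regulator of fatty acid synthesis, 3 genes of DNA replication and repair (Mcm7, Rfc1, Nthl1), transcripts better known from liver, myeloid cells and erythrocytes (Fgg, Irf8, Epb42), Dnajc21, Pxn, Rnf157, the uncharacterised D630039A03Rik, 3 small non-coding RNAs (Rny3, Rnu12, Gm25313) and Gm43078, a short transcript not yet classed as coding or non-coding. The calls rested on replicate 1: without it, none of the 15 passed (9 could still be tested, all with a positive log2 fold change, from 0.23 to 1.06). Without the pairing, no gene passed, with 217 at an unadjusted p under 0.05 against 422 in the paired fit (258 higher in A315T, 3.08%, and 164 lower, 1.96%). DESeq2 with the pairing called only D630039A03Rik, with 43 at an unadjusted p under 0.05.

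**Figure D1:**
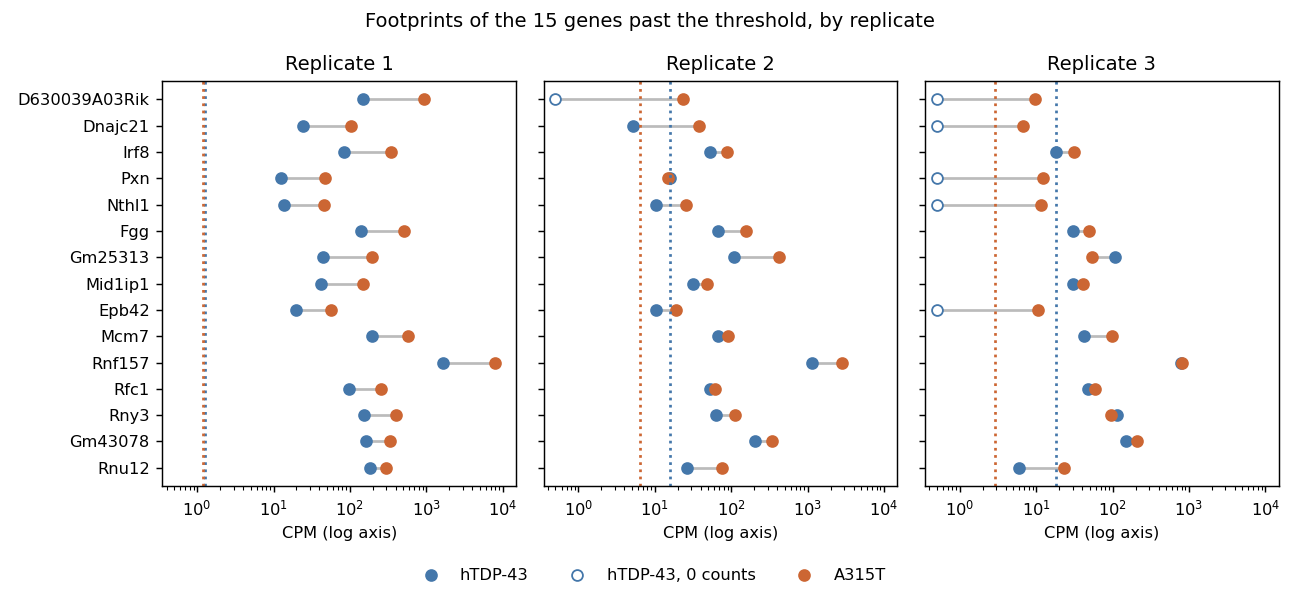
Footprint level in CPM (log axis) of the 15 genes past the threshold in each replicate, with hTDP-43 in blue and A315T in orange, joined by a line; open circles drawn at 0.5 stand for 0 counts, and the dotted lines mark the CPM of 3 counts in each library. All 15 genes were higher in A315T in replicate 1, 14 in replicate 2 and 13 in replicate 3. In replicate 3, 5 of these 13 had no hTDP-43 count and an A315T level below the hTDP-43 line, so their order was not measured.

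Mid1ip1 (ENSMUSG00000008035, GRCm38 chromosome X, 10715013 to 10719690, plus strand) encodes MIG12, which promotes the polymerisation of acetyl-CoA carboxylase, the enzyme that commits acetyl-CoA to fatty acids. Its footprints stood at 41.4, 31.2 and 30.1 CPM in hTDP-43 replicates 1 to 3 and at 151, 48.5 and 41.2 CPM in A315T. A315T was higher at each date and its lowest library lay just under the highest of hTDP-43, so the groups overlapped narrowly. The log2 fold change was 1.66 ± 0.24 (SE of the fit to 3 pairs, adjusted p = 0.00205). The ratio was 3.64 in replicate 1, with a 95% counting interval of 2.91 to 4.58, and 1.55 and 1.37 in replicates 2 and 3, where the hTDP-43 libraries had only 6 and 5 counts and the intervals included 1.

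Mcm7 encodes a subunit of the replicative DNA helicase and Rfc1 the large subunit of the clamp loader replication factor C. Mcm7 footprints were at 194, 67.7 and 42.2 CPM in hTDP-43 and at 583, 90.8 and 99.7 CPM in A315T, a log2 fold change of 1.44 ± 0.18 (adjusted p = 0.000375). Rfc1 footprints were at 98.4, 52.1 and 48.2 CPM in hTDP-43 and at 255, 61.2 and 59.4 CPM in A315T, a log2 fold change of 1.20 ± 0.20 (adjusted p = 0.00992). For both genes hTDP-43 replicate 1 lay above some A315T libraries of the other dates, so only the paired values separate the genotypes. The base excision repair glycosylase Nthl1 was at 13.8, 10.4 and 0 CPM against 45.5, 25.3 and 11.5 CPM (1.75 ± 0.31, adjusted p = 0.0142). The markers of cycling cells given above did not exceed the hTDP-43 range in A315T. Pcna, the sliding clamp that replication factor C loads, had a log2 fold change of -0.52 ± 0.32 (adjusted p = 0.973). In replicates 1, 2 and 3 taken alone Pcna was at -0.77, 0.13 and 1.35, so its sign differed between dates. The part of dividing cells in the Mcm7 and Rfc1 differences was not tested. Exons of Mcm7 overlap those of Ap4m1, Cops6, Mir25 and Mir93, those of Fgg overlap Gm30097 and those of Mid1ip1 overlap Gm14493, and the deposited counting did not use strand.

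Fgg encodes the gamma chain of fibrinogen, a clotting protein made mainly in liver. Its footprints were at 140, 67.7 and 30.1 CPM in hTDP-43 and at 512, 158 and 48.9 CPM in A315T, a log2 fold change of 1.74 ± 0.18 (adjusted p = 4.06e-05). Irf8 encodes a transcription factor of myeloid cells and microglia and was at 84.5, 52.1 and 18.1 CPM in hTDP-43 and at 341, 88.6 and 31.6 CPM in A315T (1.87 ± 0.20, adjusted p = 5.62e-05). For both genes replicate 1 was the highest and replicate 3 the lowest in either genotype, and the ranges of the genotypes overlapped. The microglia markers given above stood at 4.75 CPM in A315T replicate 1 and at 0.837 CPM in hTDP-43 replicate 1. The latter lies below the 1.26 CPM of 3 counts in that library. Their count of 0 in hTDP-43 replicates 2 and 3 allows up to 15.6 and 18.1 CPM. Their part in the Irf8 difference was not tested. Epb42, a protein of the erythrocyte membrane skeleton, was at 19.7, 10.4 and 0 CPM against 56.9, 19.0 and 10.5 CPM (1.56 ± 0.27, adjusted p = 0.0124). Both alpha globin genes, Hbb-bt and Hbb-y were at 0 counts in all 6 libraries. All 7 blood markers together summed to 1.26 CPM in hTDP-43 replicate 1 and 1.98 CPM in A315T replicate 1. Their part in the Epb42 difference was not tested.

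D630039A03Rik had the highest fold change of the 15 genes. It was at 148, 0 and 0 CPM in hTDP-43 and at 921, 23.2 and 9.59 CPM in A315T, and its log2 fold change was 2.70 ± 0.19 (adjusted p = 2.4e-07). Nearly all of its reads lay in replicate 1, with 354 counts in hTDP-43 and 2329 in A315T, a ratio of 6.22 (95% counting interval 5.56 to 6.97). In replicate 2 it was at least 1.49-fold higher in A315T, set against 3 counts of the hTDP-43 library, and in replicate 3 both libraries were below the hTDP-43 limit of 18.1 CPM. Dnajc21, a J-domain co-chaperone that acts in the maturation of the large ribosomal subunit, was at 24.3, 5.21 and 0 CPM against 103, 38.0 and 6.71 CPM (2.17 ± 0.25, adjusted p = 0.000167). Pxn encodes paxillin, an adaptor of focal adhesions, and was at 12.6, 15.6 and 0 CPM against 46.7, 14.8 and 12.5 CPM (3.48-fold, 95% interval of the log2 fold change 1.09 to 2.51, adjusted p = 0.03), so that the genotypes did not separate in replicate 2.

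Rnf157, a RING-type E3 ubiquitin ligase known from neurons, had the most reads of the 15. It was at 1635, 1141 and 777 CPM in hTDP-43 and at 7947, 2824 and 801 CPM in A315T. The ratio was 4.86 in replicate 1, 2.48 in replicate 2 and 1.03 in replicate 3, and the last had a 95% counting interval of 0.855 to 1.25. The fitted log2 fold change was 1.28 ± 0.26 (adjusted p = 0.048), and in a robust fit Rnf157 did not pass (adjusted p = 0.98).

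Of 24 genes tested in the class of small non-coding RNAs, 3 passed the threshold, and of 8305 protein-coding genes 11 did. The class also held ribosomal RNAs, among them mt-Rnr1, mt-Rnr2 and CT010467.1. Gm25313, a small nuclear RNA gene, was at 44.4, 109 and 108 CPM in hTDP-43 and at 195, 420 and 53.7 CPM in A315T. It was therefore higher in A315T in replicates 1 and 2 and lower in replicate 3, where the ratio of 0.495 had a 95% counting interval of 0.287 to 0.895. Rny3, a Y RNA that binds the Ro60 protein, was at 154, 62.5 and 114 CPM against 401, 112 and 96.8 CPM, also lower in A315T in replicate 3. In the robust fit neither passed (adjusted p = 0.98 for Gm25313 and 0.36 for Rny3). Rnu12, the U12 RNA of the minor spliceosome, was at 181, 26.0 and 6.02 CPM against 298, 76.0 and 23.0 CPM. Gm43078 was at 164, 203 and 151 CPM against 332, 344 and 210 CPM and was the gene among the 15 whose genotypes did not overlap, which 4.05% of tested genes also showed in that direction. The median log2 fold change was 0.58 over the 24 genes of this class and 0.00 over the protein-coding genes, and 0.19 and 0.00 without replicate 1. Genes of this class took 1.15 to 1.72% of reads in hTDP-43 and 1.21 to 1.93% in A315T. Much of this was CT010467.1, a ribosomal RNA entry of 1849 bases. It was at 8991, 7427 and 12435 CPM in hTDP-43 and at 5178, 9455 and 12787 CPM in A315T.

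Across the 15 genes, A315T was higher than hTDP-43 at all 3 dates for 12, against 13.1% of all genes tested. The fit that called them used these same libraries. Within replicate 1 the ratio ran from 1.65 to 6.22 with a median of 3.64, and all 15 counting intervals lay above 1. Within replicate 2 the median ratio was 1.81 and 7 intervals lay above 1, and within replicate 3 the median over the 10 genes with hTDP-43 counts was 1.38, with 1 interval above and 1 below 1. The counting intervals cover counting error only. A315T replicate 1 was the highest of all 8 neuron footprint libraries for 13 of the 15, against 6.12% of tested genes. In hTDP-43 too, replicate 1 lay above replicates 2 and 3 for 12 of the 15, against 34.7% of tested genes. The levels of these genes thus differed between dates as well as between genotypes, and the part of the date in the genotype difference was not tested.

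The non-transgenic neurons, which were sequenced at the dates of replicates 2 and 3 (2 libraries), were set beside both genotypes. The 15 genes were called from the same A315T and hTDP-43 libraries, as high in A315T and low in hTDP-43. The counts below are therefore not independent of that choice. In hTDP-43 replicate 3, 5 of the 15 genes had no count, which allows up to 18.1 CPM. Their WT levels at that date lay below this, so their order against WT was not measured. In replicate 2, 14 of the 15 genes were lower in WT than in A315T, against 45.6% of all tested genes, and 5 were higher in WT than in hTDP-43, against 4626 of all 8367. In replicate 3, 6 of the 15 were lower in WT than in A315T, close to the 46.5% of all tested genes, and 14 were higher in WT than in hTDP-43, against 4578 of all 8367. The 9 that were higher in WT than in A315T at that date included Fgg (85.1 CPM in WT, 48.9 in A315T), Mcm7 (113 and 99.7 CPM), Rnf157 (1211 and 801 CPM) and Gm43078 (495 and 210 CPM). Mid1ip1 was at 46.8 and 22.6 CPM in WT, below A315T at both dates.

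In MN1 cells, a mouse line with motor neuron properties into which either protein was introduced by transfection (2 cultures per group), 7 of the 14 genes that could be tested were also past the threshold in footprints and higher in A315T, against 0.47% of 7653 genes: D630039A03Rik, Fgg, Mid1ip1, Rfc1, Gm43078, Rny3 and Rnu12. Mid1ip1 stood at 534 and 304 CPM with hTDP-43 and at 949 and 617 CPM with A315T (log2 fold change 0.98, adjusted p = 8.95e-08). D630039A03Rik stood at 999 and 69.2 CPM against 1883 and 425 CPM (1.51, adjusted p = 3.11e-13). In these cells, too, replicate 1 had the higher level of it in both groups. Gm25313 was lower in A315T MN1 cells (-1.15). The same indexes marked the genotypes in the footprint libraries of both cell types, so in this comparison as well index and genotype cannot be told apart.

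**Figure D2:**
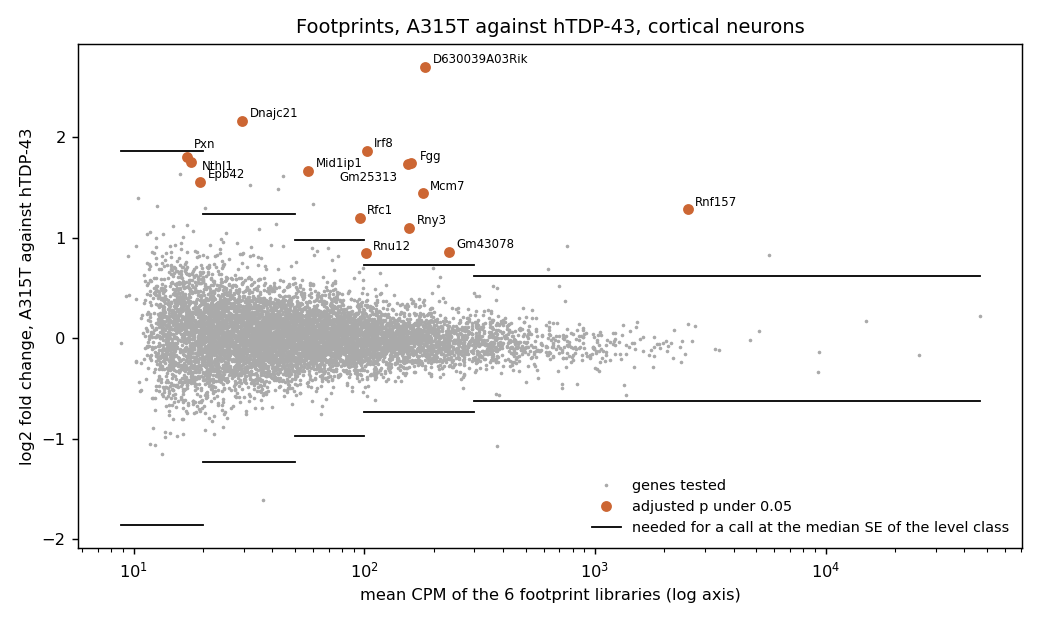
Log2 fold change of A315T against hTDP-43 footprints for the 8367 genes tested, against the mean CPM of the 6 libraries (log axis); orange points passed an adjusted p of 0.05, and the black lines show the log2 fold change that a call needed at the median SE of each level class. The line falls from 1.86 below 20 CPM to 0.62 at 300 CPM and above.

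The fold change that could reach the threshold depended on a gene's level. At a mean under 20 CPM the median SE was 0.37, and a gene with that SE needed a log2 fold change of about 1.86, or 3.64-fold, to be called. The corresponding values were 2.36-fold at 20 to 50 CPM, 1.97-fold at 50 to 100 CPM, 1.66-fold at 100 to 300 CPM and 1.54-fold from 300 CPM upward, where the median SE was 0.12. About 15.2% of the genes tested lay under 20 CPM and 6.42% at 300 CPM or more. In the class from 20 to 50 CPM, which held the most genes, the median count in hTDP-43 replicate 3 was 5. Genes with a smaller SE than the median passed at smaller differences. Epb42, with means of 10.0 CPM in hTDP-43 and 28.8 CPM in A315T, passed at 2.94-fold with an SE of 0.27. Smaller differences in genes that were not called are not shown to be absent.

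The 10 genes with the smallest unadjusted p among those lower in A315T were Stag3, Nap1l2, Tfrc, Got1, Btf3l4, Plat, Dock3, Nmd3, Pex14 and Dync2h1, and none passed the threshold. The cohesin subunit gene Stag3 had the smallest p. It was at 36.8, 1667 and 6.02 CPM in hTDP-43 and at 33.6, 519 and 3.84 CPM in A315T, a log2 fold change of -1.08 ± 0.24 (adjusted p = 0.0963). Its level differed far more between dates than between genotypes, and the WT library of replicate 2 held 1455 CPM against 1.74 CPM in replicate 3. Without replicate 1 Stag3 was the gene that passed (log2 fold change -1.66, adjusted p = 0.0317). Nap1l2, a neuronal nucleosome assembly protein, was at 68.6, 99.0 and 84.3 CPM against 44.7, 52.8 and 38.4 CPM, with no overlap of the groups (-0.75 ± 0.20, adjusted p = 0.372); 4.54% of tested genes had all A315T libraries below all hTDP-43 libraries. Got1, the cytosolic aspartate aminotransferase, was at 311, 250 and 391 CPM against 242, 194 and 214 CPM and did not overlap either (-0.50 ± 0.14, adjusted p = 0.422). Tfrc, the transferrin receptor, had a value of -0.61 ± 0.17 (adjusted p = 0.406), and the remaining 6 lay between -0.96 and -0.40 with adjusted p of 0.552 to 0.673.

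TDP-43 itself gave no separate reading of the transgene, since human TARDBP has no entry in the count tables. Mouse Tardbp was at 79.5, 78.1 and 60.2 CPM in hTDP-43 and at 78.7, 95.0 and 71.0 CPM in A315T, a log2 fold change of 0.09 ± 0.18 (95% interval -0.28 to 0.46, adjusted p = 0.998). The WT libraries stood at 101 and 97.3 CPM. Prnp, whose promoter drives both transgenes, had a log2 fold change of 0.02 ± 0.13 (95% interval -0.25 to 0.29).

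Camta1, a calmodulin-binding transcription activator, and Dennd4a, a guanine nucleotide exchange factor for Rab GTPases, were followed up by the study. Its follow-up of both was in MN1 cells, and neither is among the genes it listed as altered in both cell types. In these neurons Camta1 was at 235, 297 and 181 CPM in hTDP-43 and at 229, 226 and 231 CPM in A315T, a log2 fold change of -0.03 ± 0.14 (95% interval -0.33 to 0.26). Dennd4a was at 71.2, 88.5 and 54.2 CPM against 69.6, 63.3 and 38.4 CPM (-0.16 ± 0.20, 95% interval -0.57 to 0.26). Neither interval reached 1 log2 unit in either direction. Of the 7 genes that the study named from the overlap of its footprint comparisons, 6 could be tested here and 3 passed (D630039A03Rik, Mid1ip1 and Gm25313), a count that is not independent evidence because the list was chosen on these samples. In neurons, the study lists these 3 genes only for control against A315T. For hTDP-43 against A315T in neurons it lists Pth1r and E2f5, neither of which passed here. The median over the 6 was 1.50, and 0.06 without replicate 1.

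No gene passed the threshold in the total mRNA of the same cultures. Of 11201 genes tested in total mRNA, 0 passed (0%), with 72 at an unadjusted p under 0.05. Of the 14 footprint genes that could be tested there, 13 had a negative log2 fold change in total mRNA, with a median of -0.72 against 0.00 over all genes. Mid1ip1 mRNA was at 40.0, 63.9 and 58.3 CPM in hTDP-43 and at 80.1, 40.4 and 48.6 CPM in A315T, a log2 fold change of -0.03 ± 0.35. Rnf157 was the exception in sign, at 0.18 ± 0.22.

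**Figure D3:**
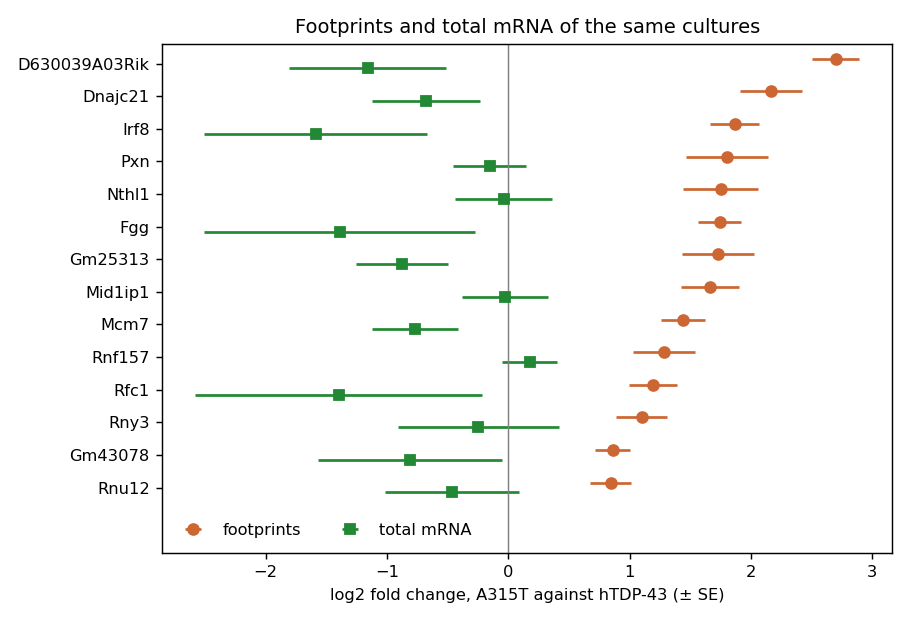
Log2 fold change of A315T against hTDP-43 (± SE of the fit to 3 pairs) in footprints (circles) and in total mRNA (squares) for the 14 genes tested in both. All 14 footprint values lie between 0.84 and 2.70, and 13 of the 14 total mRNA values lie below 0 with SE of up to 1.18.

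A single total mRNA library stood apart for these genes. For 12 of the 15 genes the hTDP-43 library of replicate 3 was the highest of the 6 total mRNA libraries, against 11.7% of all genes tested for the interaction. Rfc1 stood at 38.3, 20.3 and 1949 CPM in hTDP-43 total mRNA and at 56.2, 24.2 and 54.4 CPM in A315T. Rny3 stood at 2818 CPM in that library and between 344 and 826 CPM in the other 5, and the WT total mRNA library of replicate 3 was also high, with 2252 CPM for Rfc1 and 4989 CPM for Rny3. Both libraries gave a large share of reads to Lars2, a mitochondrial leucyl-tRNA synthetase gene (14.1% and 18.8%, against 3.09 to 7.49% in the other neuron total mRNA libraries). The part of these libraries in the comparison was not tested apart from leaving replicate 3 out.

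Relative to total mRNA, footprints of 19 genes were higher in A315T and no gene was lower (0.173% of 10967 tested, interaction of genotype and library type). Of these, 9 were among the 15: Gm25313, Irf8, Fgg, Mcm7, D630039A03Rik, Rfc1, Dnajc21, Rnf157 and Gm43078. Irf8 had a difference of 2.46 ± 0.38 log2 units (adjusted p = 4.43e-05) and Fgg of 2.35 ± 0.37 (adjusted p = 4.43e-05). Mid1ip1 did not pass, at 0.98 ± 0.31 (adjusted p = 0.577). For 17 of the 19 genes hTDP-43 replicate 3 was the highest total mRNA library, and without replicate 3 only 11 of the 19 passed: Gm25313, Irf8, Fgg, Mcm7, D630039A03Rik, Dnajc21 and Rnf157 of those named above, with Ttyh1, Tnfrsf11a, Yy1 and Dact3. Without replicate 1, 10 of the 19 passed. Without the replicate terms for each library type no gene passed, and the smallest adjusted p was 0.297, with 222 genes at an unadjusted p under 0.05.

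Exon sequences were searched for the GU-rich letters that TDP-43 binds. Of the 15 genes, 1 held a run of at least 6 GT units on the sense strand of its counted exons, against 12.2% of the 8363 tested genes that could be read from GRCm38. It lies in Irf8 at chr8:120742854-120742877, plus strand, in an exon of an annotated transcript. No coding sequence or untranslated region is annotated at the site, although it lies between the outermost coding bases of Irf8 (120739818 to 120755172). It is shown because it is the longest such run among the genes called, with the run in capitals.
Irf8: tacatGTGTGTGTGTGTGTgcatt
Mid1ip1 and Mcm7 reached 4 units, as did Pxn, and Rnf157 reached 5. A match describes these letters only.

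Gene lists of neuronal and stress biology held few calls, and their medians are given beside a median of 0.00 over all 8367 genes. No member of the integrated stress response list (20 tested) passed, but 16 lay above 0. The median was 0.23, and 0.25, 0.22 and 0.35 in replicates 1, 2 and 3 taken alone, on the same side at each date. Slc7a5, a large neutral amino acid transporter and target of ATF4, had the smallest p of the list (0.49 ± 0.13, adjusted p = 0.347), and its partner subunit Slc3a2, the most abundant member, was at 0.09 ± 0.12. Of 19 activity-dependent immediate-early genes, 15 lay above 0 with a median of 0.12 and with 0.16, 0.30 and 0.15 by replicate. Egr1 was at 0.45 ± 0.14 (adjusted p = 0.673) and Nr4a1 at 0.55 ± 0.17 (adjusted p = 0.673), and the list median was 0.03 without the pairing and 0.24 without replicate 1.

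**Figure D4:**
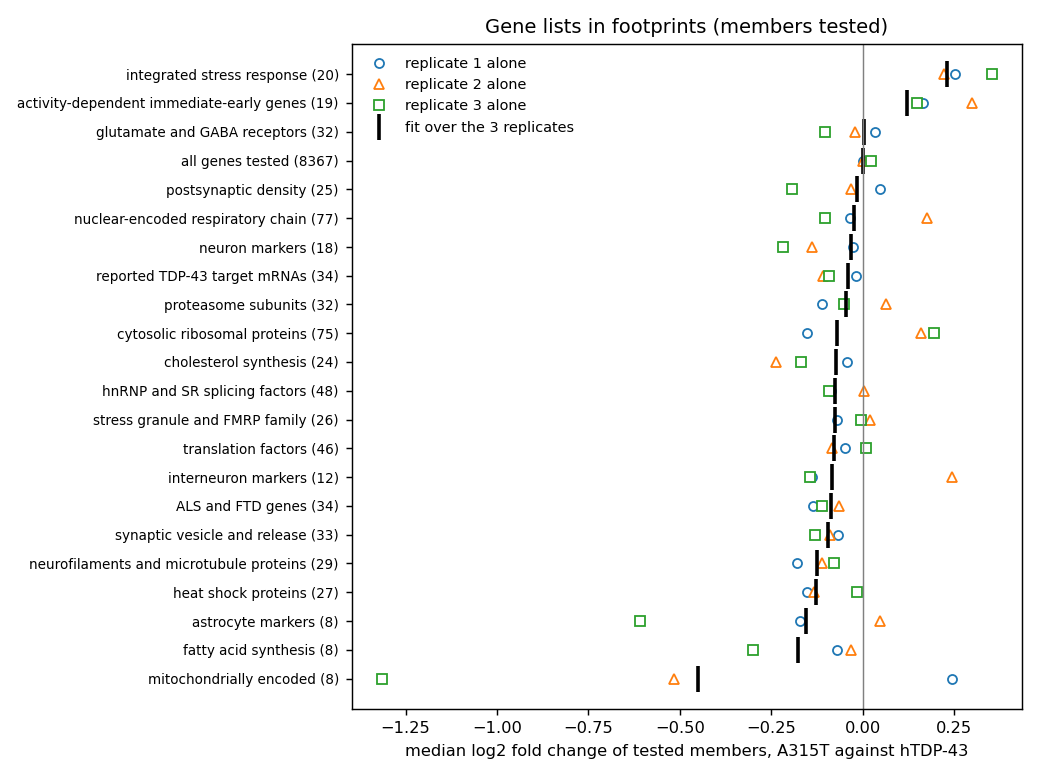
Median log2 fold change of A315T against hTDP-43 footprints over the tested members of each gene list (number tested in parentheses), for the fit over 3 replicates (black bar) and for each replicate alone (open symbols). The integrated stress response lies above 0 at each date, while the mitochondrially encoded genes range from 0.24 in replicate 1 to -1.31 in replicate 3.

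Genes of the neuronal cytoskeleton and synapse lay slightly below 0 with no member past the threshold. Of 29 neurofilament and microtubule genes 25 had a negative value (median -0.12), Map2 at -0.29 ± 0.11 (adjusted p = 0.94) and Map1b, the most abundant, at -0.12 ± 0.11. Of 33 synaptic vesicle genes 25 were negative (median -0.10), Snap25 at -0.32 ± 0.12 (adjusted p = 0.927). The postsynaptic density list (25 tested) had a median of -0.02, with Shank1 at 0.42 ± 0.15 (adjusted p = 0.927), and glutamate and GABA receptors (32 tested) one of 0.00. Of 34 ALS and FTD genes 27 were negative with a median of -0.09, Matr3 at -0.36 ± 0.13 (adjusted p = 0.927). Without replicate 1 the medians were -0.07 for the cytoskeleton, -0.11 for synaptic vesicles, -0.09 for the postsynaptic density, -0.10 for the receptors and -0.05 for the ALS and FTD genes.

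Translation and protein quality control gave similar values. The 75 cytosolic ribosomal protein genes had a median of -0.07, but -0.15 in replicate 1 and 0.16 and 0.19 in replicates 2 and 3, so the sign differed between dates. Translation factors (46 tested) had a median of -0.08 and Eef2, which moves the ribosome along the mRNA, was at -0.07 ± 0.12. Heat shock proteins (27 tested), proteasome subunits (32), splicing factors of the hnRNP and SR families (48) and stress granule proteins (26) had medians of -0.13, -0.05, -0.07 and -0.08 with 0 calls, and of -0.08, 0.03, 0.03 and -0.06 without replicate 1. Of 34 mRNAs reported to be bound or regulated by TDP-43, 1 passed, Mid1ip1, against 0.179% of all genes tested. The median was -0.04 (-0.08 without replicate 1). Mid1ip1 was picked by the study from footprint profiling that included these neurons, so its call in this list is not independent evidence.

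Lipid and energy metabolism differed by list. Mid1ip1 was the 1 call among 8 fatty acid synthesis genes, and the other 7 were negative (list median -0.18, and -0.36 without replicate 1), with the desaturase Scd2 at -0.11 ± 0.12. Of 24 cholesterol synthesis genes 19 were negative (median -0.07, and -0.21 without replicate 1), Msmo1 at -0.34 ± 0.13 (adjusted p = 0.94). Mitochondrially encoded genes (8 tested) had a median of -0.45 (-0.93 without replicate 1), and 5 had an unadjusted p under 0.05, with mt-Co1 at -0.57 ± 0.19 (adjusted p = 0.719). Their summed level was 5010, 5495 and 7401 CPM in hTDP-43 and 5704, 4002 and 3085 CPM in A315T, so that A315T was higher in replicate 1 and lower in the others. The nuclear-encoded genes of the respiratory chain (77 tested) had a median of -0.02, and 0.03 without replicate 1.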

How the data were processed

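Ribosome footprints (monosome fraction after RNase I) and poly(A) total mRNA were sequenced from the same cultures. The deposited values are raw read counts per gene. The authors clipped adapters with cutadapt 1.8.1, removed reads matching non-coding RNAs with Bowtie2, aligned the rest to GRCm38 with TopHat2 and counted uniquely placed reads on exons with featureCounts 1.4.4 (Ensembl release 80). The counting was unstranded, so overlapping and antisense genes cannot be told apart, and reads in untranslated regions count too. Small RNAs seen here are what that removal left.

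The counts were fitted with edgeR 4.0.16 in R 4.3.3: default expression filter (minimum count 10), TMM scaling (factors 0.944 to 1.04), quasi-likelihood test with the replicate number as a block, two-sided, Benjamini-Hochberg adjusted over all genes tested, threshold 0.05. DESeq2 1.42.0 was an alternative; the study used DESeq. SE is the log2 fold change divided by the root of F. CPM is per 1000000 assigned reads. Replicate numbers pair libraries because the labels give same-numbered libraries the same date. Deviations from group means correlated at 0.0331 to 0.276 across genes for same-numbered libraries (mean 0.146). For differently numbered libraries the range was -0.243 to 0.045 (mean -0.0722), so the ranges overlapped. Nothing says whether cultures came from separate litters, so p-values refer to these cultures only. The quasi-likelihood test draws the variance of each gene toward that of the other genes (median prior degrees of freedom 16.48). A p-value or SE therefore does not measure the spread of that gene alone between the cultures.

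Names came from GENCODE M21 (44585 of 45513 gene IDs). Named genes were all those past the threshold, the 10 lower genes with the smallest p, Tardbp, Prnp, Camta1, Mid1ip1 and Dennd4a, and per list the most abundant member and the one with the smallest p. The members and lists were chosen with earlier results of these data known. The interaction with cell type was added after the data were seen. Scripts were tested on simulated data.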

Additional observations from a re-analysis of the deposited data

Results flagged for a closer look

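The effect of A315T against hTDP-43 on footprints differed between neurons and MN1 cells for 4 of the genes named above (interaction of cell type and genotype, 0.111% of 9908 genes past the threshold). Only the MN1 cells met cycloheximide ahead of lysis, so cell type and protocol cannot be told apart.

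Gm25313 differed by 2.84 ± 0.27 log2 units (neurons minus MN1, adjusted p = 4.06e-21). It was lower in A315T MN1 cells (72.2 and 592 CPM) than in hTDP-43 MN1 cells (177 and 1297 CPM), a log2 fold change of -1.15, and it changed sign between dates in neurons. Irf8 differed by 1.31 ± 0.29 (adjusted p = 0.00983), at 207 and 120 CPM with hTDP-43 and 262 and 188 CPM with A315T in MN1 cells.

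Dennd4a differed by -1.87 ± 0.29 (adjusted p = 2.99e-07). It was at 151 and 87.3 CPM with hTDP-43 and at 416 and 364 CPM with A315T in MN1 cells, a log2 fold change of 1.75, against -0.16 in neurons. Camta1 differed by -1.47 ± 0.29 (adjusted p = 0.000408), with 28.5 and 193 CPM against 56.6 and 621 CPM in MN1 cells (1.53) and -0.03 in neurons.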

How the results depend on the processing

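For footprints, the count of 15 genes moved to 0 without the replicate block, to 1 with DESeq2 (D630039A03Rik), to 51 with no filter on low counts (46 higher, 5 lower), to 0 of 3191 with at least 10 counts in every library, to 1 after thinning to the shallowest library (Fgg), to 8 with all 8 neuron footprint libraries in the fit, and to between 1 and 47 when 1 replicate was left out. Scaling by RLE, a robust fit and protein-coding genes alone gave 15, 14 and 11. The value of 1 came from leaving out replicate 1 and was Stag3, lower in A315T; all 15 genes passed without replicate 2 (47 in all) and without replicate 3 (42). For total mRNA, the count of 0 became 26 with no filter and 0 to 84 when 1 replicate was left out (84 without replicate 1, 15 without replicate 3). For footprints relative to total mRNA, the count of 19 became 0 with no replicate block by library type and stayed within 1.5 times otherwise. Prnp changed sign after thinning (-0.020) and without replicate 3 (-0.10 to 0.13 over the fits that left out 1 replicate), and Camta1 with at least 10 counts in every library (0.0079) and without replicate 2 (-0.13 to 0.10 over those fits); neither passed the threshold in any of these. Of 308 values recomputed for named genes, 239 kept their direction and side of the threshold, 61 lost the threshold, 4 gained it and 4 changed sign. Of 220 list medians recomputed, 201 moved by less than the spread between dates; without replicate 1 those of ribosomal proteins (0.12), splicing factors (0.03), proteasome subunits (0.03) and the nuclear-encoded respiratory chain (0.03) turned positive and that of glutamate and GABA receptors turned negative (-0.10). Thinning also turned those of ribosomal proteins, splicing factors, the respiratory chain and astrocyte markers, and medians within 0.05 of 0 or of splicing factors changed sign under some other alternatives. The cause of these changes was not tested, except that the stricter filter and the thinning leave fewer genes and reads.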
